A study of Mus musculus with 26 samples.

Results

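The Sprouty and Spred proteins form a family of feedback inhibitors of receptor tyrosine kinase signalling. The family has 7 mouse genes, Spry1, Spry2, Spry3, Spry4, Spred1, Spred2 and Spred3, and its members were taken as the lines of the count table that carry one of these symbols when case is ignored. All 7 of 7 were found among 55391 named genes, and all 7 passed the filter on low counts, which left 14264 genes for testing. They were followed in EA1, EA2 and EA3, murine lung cancer cell lines that express the EML4-ALK fusion and were grown from tumors of C57BL/6 mice. All cultures carry the fusion. They received 100 nM alectinib, an ALK inhibitor, or 0.1% DMSO, its solvent. Each is a single line, so that a difference between lines and one between their mice of origin cannot be told apart. Each combination of line, treatment and day gave 1 library, and with days 1, 2, 3 and 5 these add up to 24 libraries, 4 in each line and treatment. The 4 days served as the replicates of a group, n = 4 throughout, and no library was repeated within a day. The p-values therefore rest on the spread between days.

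Receptor kinases such as the ALK fusion activate the Ras, MEK and ERK cascade, and ERK in turn raises the transcription of genes whose products dampen the cascade. Sprouty proteins act on adaptors and kinases downstream of the receptor. Spred proteins bind neurofibromin, the Ras GTPase-activating protein encoded by Nf1, and bring it to the membrane where Ras is. Because several of these genes are transcribed in response to ERK, their mRNA is also read as a measure of pathway activity.

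Library totals of the 24 libraries lay between 5780062 and 11732401 counts, with a median of 9252878. Levels are given as CPM, the counts of a gene scaled to a common library size with TMM factors. The 2 further libraries labelled EA3 day 7 correlated more with EA2 than with EA3 over the tested genes (r = 0.967 against 0.887 in DMSO and 0.986 against 0.876 in alectinib) and were left out. Epithelial markers (5 of 5 in the table) summed to 4750 to 9116, 1821 to 2687 and 4711 to 6760 CPM in the DMSO libraries of EA1, EA2 and EA3. With alectinib the sums were 3177 to 5350, 561 to 1176 and 2924 to 6663 CPM, and Epcam was at 0 in every EA2 alectinib library. The members of this list did not move together, since Krt18 fell in each line and Krt8 in EA2, while Cdh1 rose in EA2 and EA3 (log2 fold changes 1.55 and 0.62) and Epcam in EA1 (2.41) in the edgeR test, and Krt19 passed in none. Summed fibroblast markers (5 of 5 in the table) were higher with alectinib, at 1.46 to 6.11 against 13.9 to 69.2 CPM for DMSO against alectinib in EA1, 56.5 to 71.0 against 117 to 240 CPM in EA2, and 10.3 to 20.4 against 84.5 to 241 CPM in EA3. Col1a1 and Col1a2 rose in each line and Dcn in EA1 and EA3, Pdgfra passed in none, and Thy1 was too low to be tested. Col1a2 was at 0 in all DMSO libraries of EA1 and Thy1 in all those of EA3. Summed blood cell markers (4 of 4) stayed at or below 93.9 CPM and endothelial markers (3 of 3) at or below 9.17 CPM in every library, with Cd3e at 0 in EA2 and in all alectinib libraries. Cd68 made up most of the blood cell sum and reached 92.7 CPM in DMSO in EA3. Ptprc stayed at or below 0.36 CPM and Ly6g at or below 3.62 CPM. The part of these differences in the results was not tested, and fewer cells of a type and less RNA per cell cannot be told apart in bulk RNA.

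In the GENCODE annotation of GRCm38 (mm10), Spry1 lies on the plus strand at chr3:37639947-37644598, Spry2 on the minus strand at chr14:105891947-105896819 and Spry4 on the minus strand at chr18:38586247-38601415, whereas Spry3 is placed on an unlocalized scaffold. Spred1 lies on the plus strand at chr2:117121374-117182279, Spred2 on the plus strand at chr11:19924375-20024026 and Spred3 on the minus strand at chr7:29158829-29170411. Counts were taken over exons, which add up to between 2087 bases in Spry2 and 6784 bases in Spred1. In Spry1, 24.4% of the exon bases (710) are shared with Gm42922 on the other strand, and in Spred3, 3.25% (202) with Ggn. The strand used in counting is not given in the sources used here, so the values of Spry1, and to a smaller extent of Spred3, are uncertain.

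With alectinib, 5 of the 7 family members fell in each line, and they were the same 5, namely Spry2, Spry4, Spred1, Spred2 and Spred3. None rose. Spry1 and Spry3 did not pass the test in any line. Across all genes tested in EA1, EA2 and EA3, 15.8%, 11.3% and 15.8% were lower and 18%, 13% and 16.5% were higher (edgeR's quasi-likelihood test, Benjamini-Hochberg adjusted p under 0.05). The 5 members were lower on 4 of 4 days in each line, and their alectinib and DMSO libraries did not overlap. Such a separation, with all 4 alectinib libraries below all 4 DMSO libraries, was seen for 13.8% of the tested genes in EA1, 12.6% in EA2 and 11.4% in EA3. The median log2 fold change of the 7 members over EA1, EA2 and EA3 was -1.14, -2.29 and -1.22, beside 0.03, 0.00 and 0.04 for all tested genes.

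**Figure D1:**
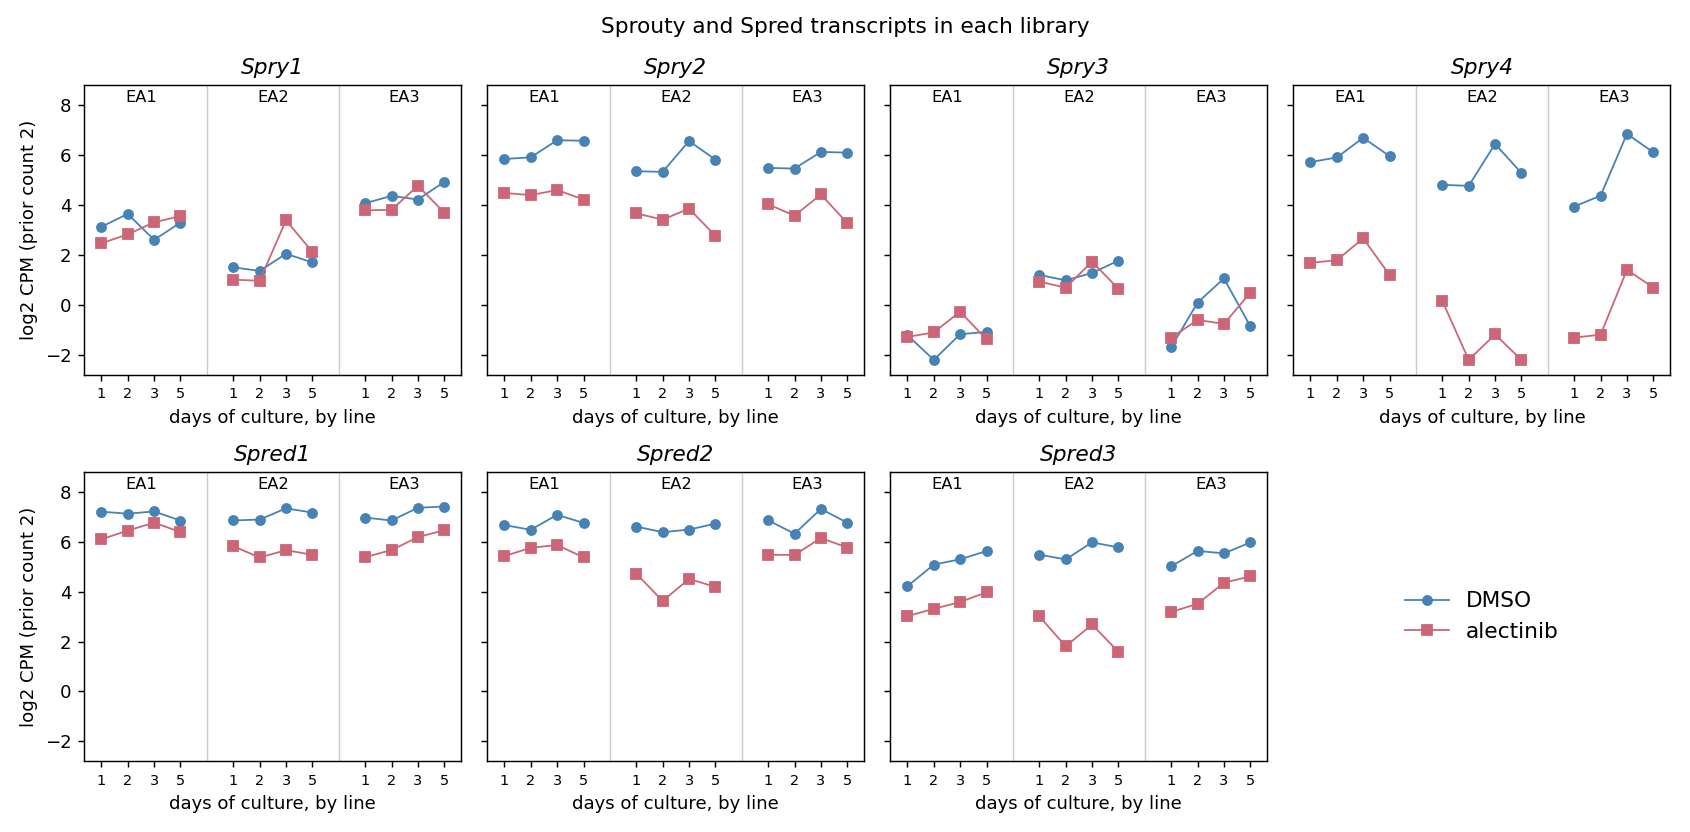
Level of each family member in each of the 24 libraries, as log2 CPM with a prior count of 2 (vertical axis), by line and day of culture (horizontal axis), with DMSO as blue circles and alectinib as red squares. The alectinib points lie below all DMSO points of the same line for Spry2, Spry4, Spred1, Spred2 and Spred3, and the groups overlap for Spry1 and Spry3.

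Spry4, a Sprouty protein that restrains Ras signalling downstream of growth factor receptors, had the largest fall of the family. In EA1 it was at 52.1, 59.4, 102.6 and 61.6 CPM on days 1, 2, 3 and 5 in DMSO and at 2.98, 3.23, 6.08 and 2.07 CPM in alectinib. The highest alectinib library thus stayed far below the lowest DMSO library. In EA2 the DMSO libraries held 27.7, 26.9, 86.5 and 38.4 CPM, from 307, 184, 865 and 458 counts, and the alectinib libraries held 9, 0, 2 and 0 counts. In EA3 the DMSO libraries held 15.1, 20.4, 114.5 and 68.4 CPM, and the alectinib libraries held 2, 2, 26 and 13 counts. Day 3 was the highest DMSO library in each of the 3 lines. At a floor of 3 counts per library, Spry4 in EA2 was at least 51.7-fold lower on day 2 and at least 115-fold lower on day 5, counting no error of the DMSO libraries, and the 95% counting interval, which covers both libraries, reached down to 41.7-fold and 93.3-fold. On day 3 in EA2 the ratio of alectinib to DMSO was 0.00256 (95% counting interval 0.00031 to 0.00929), and in EA3 it was 0.0123 (0.00148 to 0.0451) on day 1 and 0.0108 (0.00129 to 0.0395) on day 2. Intervals and floors cover counting error only. The log2 fold changes in EA1, EA2 and EA3 were -4.31 (SE 0.38), -7.07 (SE 0.52) and -5.77 (SE 0.45), with edgeR's adjusted p at 6.44e-06, 2.54e-06 and 3.69e-06. The EA2 value rests on 11 alectinib counts in all, and without the libraries of day 1 it moved to -9.14.

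Spry2, the Sprouty protein whose mRNA was the most abundant of the family per exon length in DMSO, fell to between 19.5% and 28.4% of its DMSO level in the fit. In EA1 it went from 56.8, 59.6, 95.9 and 94.5 CPM on the 4 days to 22.0, 20.7, 23.9 and 18.3 CPM. In EA2 it went from 40.4, 39.7, 93.7 and 55.9 CPM to 12.4, 10.4, 14.2 and 6.56 CPM, and in EA3 from 44.3, 43.6, 69.3 and 67.9 CPM to 16.0, 11.6, 21.1 and 9.44 CPM. Over the 3 lines, the highest alectinib library (23.9 CPM) lay below the lowest DMSO library (39.7 CPM), and day 5 had the lowest alectinib library in each line. The log2 fold changes in EA1, EA2 and EA3 were -1.82 (SE 0.26), -2.36 (SE 0.27) and -1.97 (SE 0.26), with edgeR's adjusted p at 0.000215, 4.4e-05 and 0.000144.

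Spry1, which is best known for limiting receptor kinase signalling in kidney development, took no common direction. In EA1 its DMSO libraries held 8.47, 12.2, 5.84 and 9.55 CPM on days 1, 2, 3 and 5, and its alectinib libraries 5.29, 6.83, 9.63 and 11.5 CPM. In EA2 the values were 2.61, 2.34, 3.90 and 3.02 CPM against 1.79, 1.73, 10.2 and 4.11 CPM, and in EA3 16.5, 20.3, 18.3 and 30.0 CPM against 13.5, 13.7, 27.0 and 12.7 CPM. The ratio of alectinib to DMSO was below 1 on days 1 and 2 and above 1 on day 3 in each line. On day 3 its values were 1.65, 2.62 and 1.47. Over all days the log2 fold changes were -0.13 (95% interval -0.90 to 0.64), 0.31 (-0.54 to 1.16) and -0.38 (-1.13 to 0.36) for EA1, EA2 and EA3, with edgeR's adjusted p at 0.804, 0.609 and 0.424. Its sign depended on single days. Without day 1 or day 2 it turned in EA1 to 0.05 or 0.08, and without day 3 it turned in EA2 to -0.14.

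Spry3, the Sprouty gene with the lowest level in DMSO in every line, was sparse. The counts ranged between 0 and 6 in EA1, between 8 and 38 in EA2 and between 1 and 14 in EA3. A difference between treatments was not detectable at this depth, where the log2 fold change stood at 0.72, -0.34 and -0.40 for EA1, EA2 and EA3 and edgeR's adjusted p at 0.530, 0.705 and 0.702. In EA3 the value turned to 0.48 without day 3 and was -1.12 without day 5.

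The 3 Spred genes, whose products bring neurofibromin to Ras, all fell. Spred1 had the smallest of the 5 falls in EA1 and EA2, and Spred2 in EA3. The DMSO libraries of Spred1 held 114.5 to 147.7, 114.9 to 160.8 and 114.8 to 169.4 CPM in EA1, EA2 and EA3, and its alectinib libraries 68.0 to 108.1, 41.0 to 56.2 and 41.4 to 87.6 CPM. In EA1 the gap between the groups was narrow, and the fit put alectinib at 62.7% of DMSO. The log2 fold changes in EA1, EA2 and EA3 were -0.67 (SE 0.16), -1.48 (SE 0.16) and -1.22 (SE 0.16), with edgeR's adjusted p at 0.00509, 2.87e-05 and 0.000105.

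Spred2 mRNA went from 107.9 ± 19.4 CPM (SD, n = 4) in DMSO to 48.9 ± 8.28 CPM with the drug in EA1, and from 115.3 ± 32.6 to 53.2 ± 12.5 CPM in EA3. In EA2 it went from 93.6 ± 9.65 to 19.7 ± 6.04 CPM. The alectinib libraries of EA2 ran from 12.1 to 26.1 CPM and lay below all alectinib libraries of EA1 and EA3, whose lowest values were 41.2 and 44.0 CPM. The log2 fold changes in EA1, EA2 and EA3 were -1.14 (SE 0.17), -2.29 (SE 0.18) and -1.10 (SE 0.17), with edgeR's adjusted p at 0.000247, 2.93e-06 and 0.000325.

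Spred3, the Spred gene with the lowest level, was at 44.4, 38.8, 62.5 and 54.3 CPM on days 1, 2, 3 and 5 in DMSO cultures of EA2 and at 7.85, 3.29, 6.21 and 2.78 CPM in alectinib. In EA1 it was at 18.3, 33.6, 39.0 and 49.0 CPM in DMSO and at 7.89, 9.69, 11.8 and 15.5 CPM in alectinib, so that both series were higher on each later day. In EA3 the values were 32.0, 49.3, 45.9 and 62.4 CPM against 8.88, 11.2, 20.2 and 24.2 CPM. The lowest DMSO library of EA1 and the highest alectinib library of that line were less than 3 CPM apart. The log2 fold changes in EA1, EA2 and EA3 were -1.60 (SE 0.24), -3.37 (SE 0.26) and -1.63 (SE 0.24), with edgeR's adjusted p at 0.000269, 2.93e-06 and 0.000247.

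**Figure D2:**
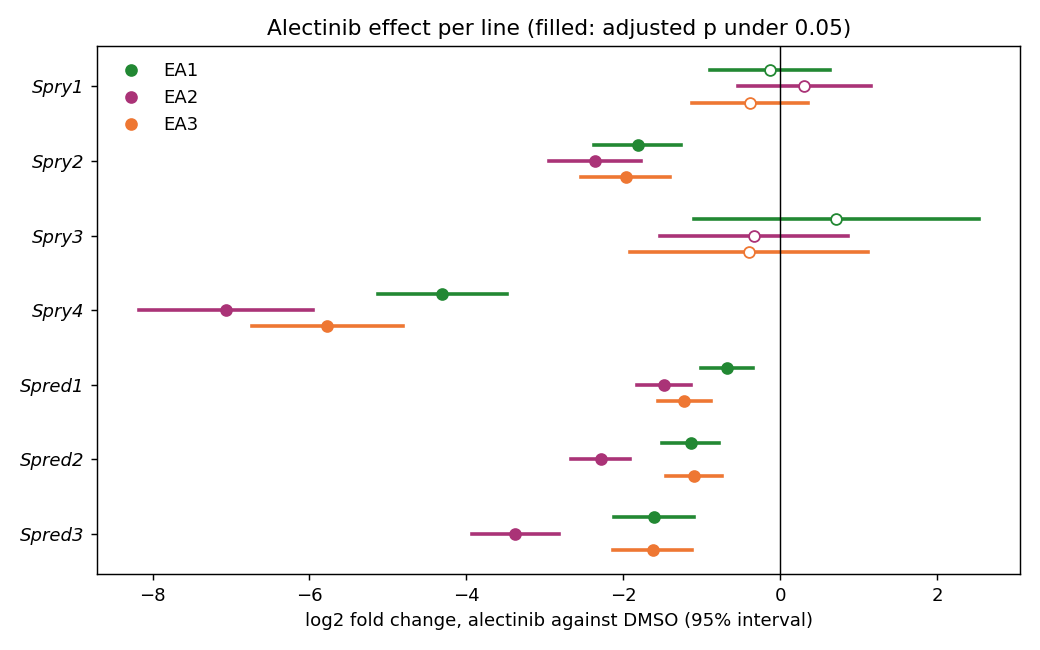
Log2 fold change of alectinib against DMSO (horizontal axis) with its 95% interval for each family member (vertical axis) in EA1 (green), EA2 (purple) and EA3 (orange), with filled points for an adjusted p under 0.05 in the edgeR test. Spry4 lies furthest to the left in each line, from -4.31 to -7.07, and the intervals of Spry1 and Spry3 include 0.

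The size of the fall was then compared between the lines. The alectinib effect differed between lines for 3 of the 7 members, Spry4 (adjusted p = 0.0469), Spred2 (0.0119) and Spred3 (0.00972), in an edgeR test over the 3 lines (2 degrees of freedom) that called 7.05% of all tested genes. All 3 had their largest fall in EA2, as did Spry2 and Spred1. For Spred3 the log2 fold change in EA2 minus that in EA1 was -1.77 (95% interval -2.51 to -1.04), and for Spred2 it was -1.15 (-1.65 to -0.64). EA3 minus EA1 was close to 0 for both, at -0.02 (-0.74 to 0.69) for Spred3 and 0.04 (-0.46 to 0.54) for Spred2. For Spry4 the difference was -2.76 (-4.21 to -1.31) between EA2 and EA1, -1.46 (-2.69 to -0.24) between EA3 and EA1 and 1.30 (-0.35 to 2.94) between EA3 and EA2. The intervals are not adjusted for the number of comparisons. For Spry2 the difference between EA2 and EA1 was -0.54 (-1.33 to 0.24). For Spred1 it was -0.81 (-1.28 to -0.34), which passed in edgeR's test of that pair alone (adjusted p = 0.0444). The edgeR test over the 3 lines gave an adjusted p of 0.534 for Spry2, 0.0756 for Spred1, 0.620 for Spry1 and 0.700 for Spry3. The calls of the test over the 3 lines depended on the libraries used. With all 26 libraries, 0 members passed. That fit counts as EA3 the 2 libraries labelled day 7, which correlated more with EA2. It therefore cannot decide how firm a difference between these lines is. Without day 1, 4 members passed, without day 2, 1 passed (Spred3), and without day 3 or day 5, 0 passed, and a fit without the day as a block called 1 (Spred2). EA2 was also the line with the lowest summed epithelial markers in both treatments, and the part of this in the results was not tested.

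The levels themselves were compared next. In DMSO, the lines differed for 3 of 7 members, while 54.9% of all tested genes differed. Spry1 was highest in EA3 at 21.3 ± 6.02 CPM (SD, n = 4), followed by EA1 at 9.02 ± 2.64 CPM and EA2 at 2.97 ± 0.682 CPM (adjusted p = 2.2e-05, edgeR), and the log2 difference between EA3 and EA2 was 2.78 (95% interval 2.14 to 3.41). The DMSO libraries of the 3 lines did not overlap for Spry1. Spry3 was highest in EA2 at 2.30 ± 0.619 CPM (adjusted p = 0.00342, edgeR), and Spry2 was highest in EA1 at 76.7 ± 21.4 CPM, beside 57.4 ± 25.3 CPM in EA2 and 56.3 ± 14.2 CPM in EA3 (adjusted p = 0.0378, edgeR). The Spry2 call was lost in 7 of 10 alternatives, namely with library size alone, with no filter, with at least 10 counts in every library, in a fit without the day as a block, and without day 1, day 2 or day 5. EA2 and EA3 could not be told apart for Spry2, with a log2 difference of 0.00 (-0.34 to 0.35). Spred3 (adjusted p = 0.0502), Spry4 (0.0674), Spred2 (0.412) and Spred1 (0.918) did not pass the edgeR test. Of these, Spred3 passed in 4 of the 10 alternatives (DESeq2 size factors, library size alone, at least 10 counts in every library, and DESeq2) and Spry4 in 3 (no filter, without day 3 and without day 5). For Spred1 the interval of the log2 difference was -0.41 to 0.32 between EA2 and EA1 and -0.34 to 0.39 between EA3 and EA1.

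In alectinib, the lines differed for 7 of 7 members, with adjusted p-values from 0.000592 for Spred2 to 0.026 for Spry4, while 61.2% of all tested genes differed (edgeR). Without day 2, 4 members remained past the threshold, and without day 3, 3 did (Spred2, Spry1 and Spry2). Relative to EA1, EA2 was lower by a log2 difference of -1.37 for Spred2 (95% interval -1.84 to -0.90), -1.06 for Spry2 (-1.45 to -0.68) and -0.87 for Spred1 (-1.34 to -0.41). Spry3 went the other way, with EA2 higher than EA1 by 2.60 (1.17 to 4.04) on the log2 scale.

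Per kilobase of exon, which allows levels of different genes to be compared, the summed family mRNA went from 103.6 ± 18.3 (SD, n = 4) to 39.0 ± 5.52 CPM per kilobase in EA1, from 86.6 ± 23.0 to 19.4 ± 4.65 in EA2 and from 99.6 ± 27.4 to 36.5 ± 9.39 in EA3. In DMSO the order by level was Spry2, Spred2, Spred1, Spry4, Spred3, Spry1 and Spry3 in each line. Neighbours among the first 4 overlapped over days in each line, as did Spry4 and Spred3 in EA2 and EA3 and Spred3 and Spry1 in EA1 and EA3, whereas Spry3 lay below all other members. In DMSO cultures of EA1 the 4 leading genes stood at 36.8 ± 10.3, 23.4 ± 4.19, 20.2 ± 2.28 and 14.5 ± 4.79 CPM per kilobase. Alectinib changed the make-up of the sum. With DMSO, Spry4 supplied 13.8%, 10.2% and 10.2% of it in EA1, EA2 and EA3, and with alectinib 1.88%, 0.258% and 0.524%. The share of Spry1 went from 3.14% to 7.33% in EA1, from 1.19% to 7.53% in EA2 and from 7.60% to 15.6% in EA3, although its own level did not pass the test. Spred1 had the highest level in alectinib in EA1 (12.8 ± 2.44 CPM per kilobase) and EA2 (7.07 ± 0.990), and Spred2 in EA3 (11.5 ± 2.70, beside 9.28 ± 3.09 for Spred1). The shares and the sum were not tested.

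**Figure D3:**
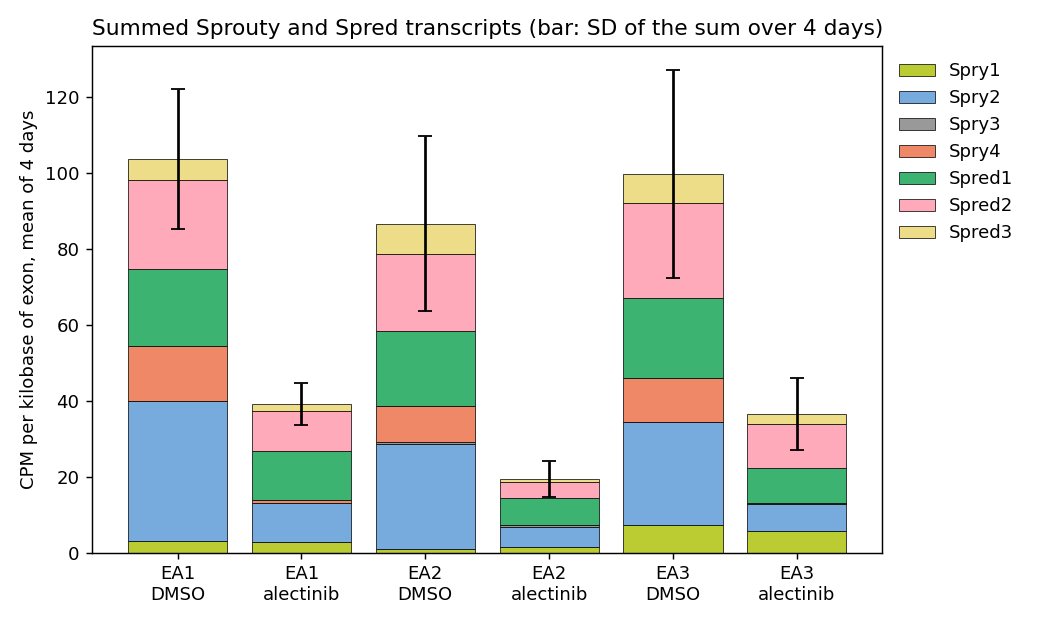
Stacked mean levels of the 7 family members in CPM per kilobase of exon (vertical axis) for each line and treatment (horizontal axis), each the mean of 4 days, with error bars for the SD of the summed level over days. The sum falls from 103.6 to 39.0 in EA1, from 86.6 to 19.4 in EA2 and from 99.6 to 36.5 in EA3, and the Spry4 segment shrinks to a thin line or less.

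The time course asks whether the effect grew over the days. Days are those of the sample titles and time labels, which include day 2, whereas the labels' treatment protocol names days 1, 3, 5 and 7. On daily ratios, Spry2 in alectinib stood at 0.388, 0.348, 0.249 and 0.194 of its DMSO level on days 1, 2, 3 and 5 in EA1, and at 0.307, 0.262, 0.152 and 0.118 in EA2. In EA3 the ratios were 0.361, 0.267, 0.305 and 0.139. The ratio of day 5 was thus the lowest in each line, and in EA1 and EA2 each day lay below the one before. Both sides of the ratio moved. From day 1 to day 5, Spry2 in DMSO went from 56.8 to 94.5, 40.4 to 55.9 and 44.3 to 67.9 CPM in EA1, EA2 and EA3. In alectinib it went from 22.0 to 18.3, 12.4 to 6.56 and 16.0 to 9.44 CPM. The slope of the log2 ratio per doubling of days was -0.45, -0.63 and -0.51 in EA1, EA2 and EA3 in the edgeR fit (unadjusted p = 0.0287, 0.00568 and 0.017), and none passed after adjustment (adjusted p = 0.374, 0.629 and 0.267). Spred1 had slopes of 0.29, -0.29 and 0.26, and none passed the edgeR test. In all, 0 of 21 combinations of member and line passed after adjustment and 5 had an unadjusted p under 0.05, with Spry4 and Spred3 in EA2 beside Spry2 in the 3 lines. Over all genes, 0.021% passed after adjustment in EA1, 0% in EA2 and 0.0631% in EA3. An unadjusted p under 0.05 was reached by 1607, 846 and 1849 of the 14264 tested genes in EA1, EA2 and EA3. DESeq2 also called 0 members.

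In the DMSO cultures, 0 of 21 combinations showed a change of level with days after adjustment (smallest adjusted p = 0.0606, edgeR), while 3.79% of all genes did in EA1, 0% in EA2 and 11.3% in EA3. An unadjusted p under 0.05 was found for 3, namely Spred3 in EA1 (slope 0.60 log2 units per doubling of days) and EA3 (0.38) and Spry4 in EA3 (1.24). Among all 14264 tested genes, 3043, 448 and 3953 reached this in EA1, EA2 and EA3, so the 3 do not stand out from the background. DESeq2 called 2 members, Spred3 and Spry4, and so did edgeR without day 3. Spry4 in EA3 had gone from 15.1 CPM on day 1 to 114.5 CPM on day 3.

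**Figure D4:**
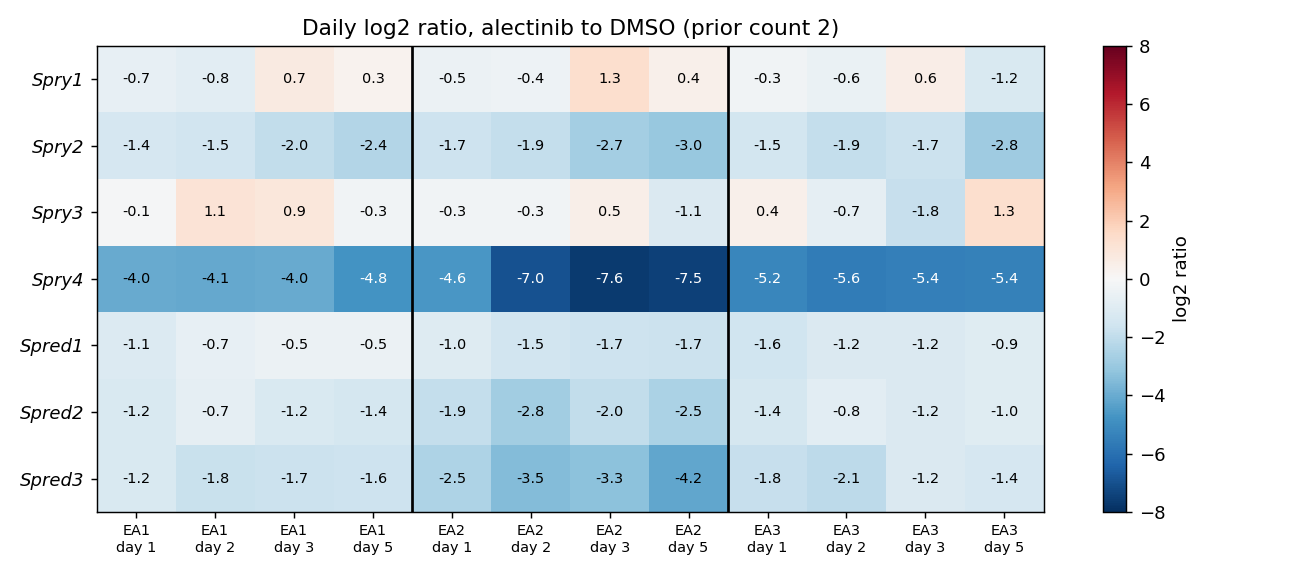
Log2 ratio of alectinib to DMSO on each day (prior count 2) for the 7 family members (rows) in EA1, EA2 and EA3 on days 1, 2, 3 and 5 (columns), with blue for lower and red for higher in alectinib. All 12 ratios are below 0 for Spry2, Spry4, Spred1, Spred2 and Spred3, those of Spry1 are above 0 on day 3 in each line, and the Spry4 values of EA2 on days 2 and 5 rest on 0 alectinib counts and depend on the prior count.

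The members that fell lie on different chromosomes, so their upstream sequences were read side by side. RefSeq promoter windows matched 5 of the 7 members, and Spry3 and Spry4 were not matched. The 250 bases before the start are shown for Spry2 and Spred1, which fell, and for Spry1, which did not pass the test. Both strands were searched for the ETS motifs GGAAGT and CCGGAAGT, the AP-1 motif TGACTCA and the cyclic AMP response element TGACGTCA, where GGAAGT is contained in CCGGAAGT. The sequences are in 5′ to 3′ direction of the gene, and since none of the 3 holds a match, they have no capitals. Build GRCm38.p6 gives chr14:105896820-105897069 (minus strand) for Spry2, chr2:117120821-117121070 (plus strand) for Spred1 and chr3:37639697-37639946 (plus strand) for Spry1.
Spry2: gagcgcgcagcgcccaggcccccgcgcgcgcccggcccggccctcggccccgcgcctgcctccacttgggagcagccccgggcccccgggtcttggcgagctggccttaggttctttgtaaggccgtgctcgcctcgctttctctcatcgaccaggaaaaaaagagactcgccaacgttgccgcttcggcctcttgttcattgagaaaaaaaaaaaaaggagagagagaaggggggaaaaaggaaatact
Spred1: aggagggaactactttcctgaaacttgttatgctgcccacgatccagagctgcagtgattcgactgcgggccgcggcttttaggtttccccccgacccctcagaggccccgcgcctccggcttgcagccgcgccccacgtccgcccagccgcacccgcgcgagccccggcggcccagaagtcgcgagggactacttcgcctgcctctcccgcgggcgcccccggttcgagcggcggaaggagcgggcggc
Spry1: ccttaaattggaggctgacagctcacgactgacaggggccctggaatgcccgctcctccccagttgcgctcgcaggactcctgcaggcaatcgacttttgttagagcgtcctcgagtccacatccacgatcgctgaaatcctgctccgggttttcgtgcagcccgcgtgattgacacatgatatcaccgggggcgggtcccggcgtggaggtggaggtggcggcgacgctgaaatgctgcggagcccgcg

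Of the 5 windows, that of Spred2 held 1 match, GGAAGT on the other strand at -33 from the RefSeq start. That start lies 67 bases inside the GENCODE gene, so the match lies within the annotated Spred2 gene and not before it. The RefSeq and GENCODE starts are the same for Spry1 and Spry2 and 303 bases apart for Spred1, whose window ends before the GENCODE start, while all 250 bases of the Spred3 window lie inside the GENCODE gene. The windows of Spry1, Spry2, Spred1 and Spred3 held none of these letters. Among 32851 mouse promoter windows of the same length, 19.7% hold GGAAGT, 2.88% CCGGAAGT, 4.46% TGACTCA and 1.55% TGACGTCA. The GC content was 62.4% in Spry1 and in Spry2, 56% in Spred2, 55.6% in Spred3 and 70.8% in Spred1. A match is a description of the letters and not of a binding site.

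Across the 24 libraries, the log2 CPM of Spry2, Spry4, Spred1, Spred2 and Spred3 correlated with each other at r = 0.852 to 0.968, over points that share the split between DMSO and alectinib. Spry1 correlated with these 5 at 0.136 to 0.365 and Spry3 at -0.218 to -0.007. Over the 12 daily ratios, Spred2 and Spred3 stood at 0.858 and Spry4 with Spred3 at 0.820, whereas Spry2 with Spred1 stood at 0.205. These points no longer hold the split by treatment but still share the lines, and all 5 of these members fell most in EA2. There, 2 of the Spry4 ratios rest on 0 alectinib counts and a prior count. Among all tested genes with an average log2 CPM of at least 1, those most like Spry4 over the 24 libraries were Dagla (r = 0.970), Spred1 (0.968) and Etv5 (0.963). Hmga2 (0.968), Spry4 (0.960) and Dagla (0.956) were most like Spry2, and Spry4, Sema6d (0.945) and Etv5 (0.941) most like Spred1. Itga6 (0.948), Lamb1 (0.929) and Dagla (0.924) led for Spred2, and Lamb1 (0.943), Mmp13 (0.925) and Dusp6 (0.921) for Spred3. Fcho1 (0.897), Map7 (0.888) and Atp6v0a1 (0.884) were most like Spry1, and Chic1 (0.899), Map3k13 (0.899) and Ift57 (0.886) most like Spry3. Over the 12 daily ratios, Prkcd (0.940), Atg9b (0.910) and Eno2 (0.902) were most like Spry2, and Itgb2 (0.936), Tspan11 (0.935) and Krt20 (0.932) most like Spry4. Il33 (0.937), Cybb (0.930) and Pros1 (0.925) led for Spred1, Rasa2 (0.968), Casc4 (0.963) and Gpc6 (0.955) for Spred2, and Ifi203 (0.934), Crabp1 (0.931) and Wfdc2 (0.929) for Spred3. Samd1 (0.826), Rpp21 (0.814) and Ube2d-ps (0.802) led for Spry1, and Fkbp14 (0.857), Dynlt1b (0.833) and Zcchc24 (0.831) for Spry3. Each is the highest of many genes over few points, and no chance level was computed, so shared regulation cannot be read from them. Spry3 also rests on 0 to 6 counts per library in EA1 and 1 to 14 in EA3.

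Other genes of the pathway were counted in 3 lists. The ERK output list holds the 8 genes that share a published MAPK activity score with Spry2 and Spry4. In each line 6 of the 8 fell and 1 rose, and the list's median log2 fold changes were -1.81, -2.54 and -1.20 in EA1, EA2 and EA3. Etv4 and Etv5, ETS transcription factors induced by ERK, went from 76.9 ± 15.2 to 4.42 ± 0.990 CPM and from 73.7 ± 14.4 to 5.69 ± 1.51 CPM in EA1 (log2 fold changes -4.12 and -3.70), and Dusp6, the ERK phosphatase, went from 190.6 ± 42.4 to 37.6 ± 13.7 CPM (-2.38). The same 3 genes, in that order, stood at -6.59, -6.66 and -5.03 in EA2 and at -4.06, -4.52 and -3.31 in EA3 on the log2 scale. Their effects also differed between lines (adjusted p = 0.0164, 0.0129 and 0.00594 in edgeR's test over the 3 lines), whereas the other genes of the list did not pass that test. The gene that rose was Epha4, an ephrin receptor (1.93, 0.88 and 1.16), which was singled out after its values were seen.

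The list of other feedback inhibitors of receptor kinases and ERK holds 12 genes, all tested, of which 8, 6 and 6 fell in EA1, EA2 and EA3, and none rose. Its median log2 fold change was -0.93, -0.74 and -0.66. The largest falls were those of Dusp5, a nuclear ERK phosphatase (-2.82, -3.23 and -3.12 in EA1, EA2 and EA3), Dusp9, a cytoplasmic ERK phosphatase (-2.23, -3.14 and -1.79), and Errfi1, an inhibitor of EGFR (-1.28, -1.97 and -1.38). Dusp9 was sparse in EA1, at 4 to 13 counts in alectinib.

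Proteins that bind or modify Sprouty and Spred formed the last list, with 14 of 15 tested, since Kit, a receptor bound by Spred proteins, was filtered out at 0 to 12 counts per library. Here 1 fell and 2 rose in EA1, 2 fell and 3 rose in EA2, and 4 fell and 3 rose in EA3, with medians of -0.03, 0.23 and 0.01. Siah2, a ubiquitin ligase that targets Sprouty proteins for degradation, fell in all 3 lines (-1.25, -0.87 and -1.76). Egln3, a prolyl hydroxylase, fell in EA2 (-2.45) and EA3 (-2.33) and stood at -0.06 in EA1. Tesk1, a kinase bound by Sprouty proteins, rose in EA3 (1.13) and stood at 0.46 in EA1 and 0.33 in EA2. Further calls, named after their values were seen, included rises of Nedd4 in all 3 lines (0.45, 0.54 and 0.64), Grb2 and Cav1 in EA2 and Ptpn11 in EA3, and falls of Egln1 and Cav1 in EA3. Nf1, the partner of the Spred proteins, did not pass in any line, standing at -0.45, -0.01 and 0.31 in EA1, EA2 and EA3 (edgeR's adjusted p 0.164, 0.987 and 0.364). Each list is described by its counts and median beside the 15.8%, 11.3% and 15.8% of all tested genes that were lower and the 18%, 13% and 16.5% that were higher.

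**Figure D5:**
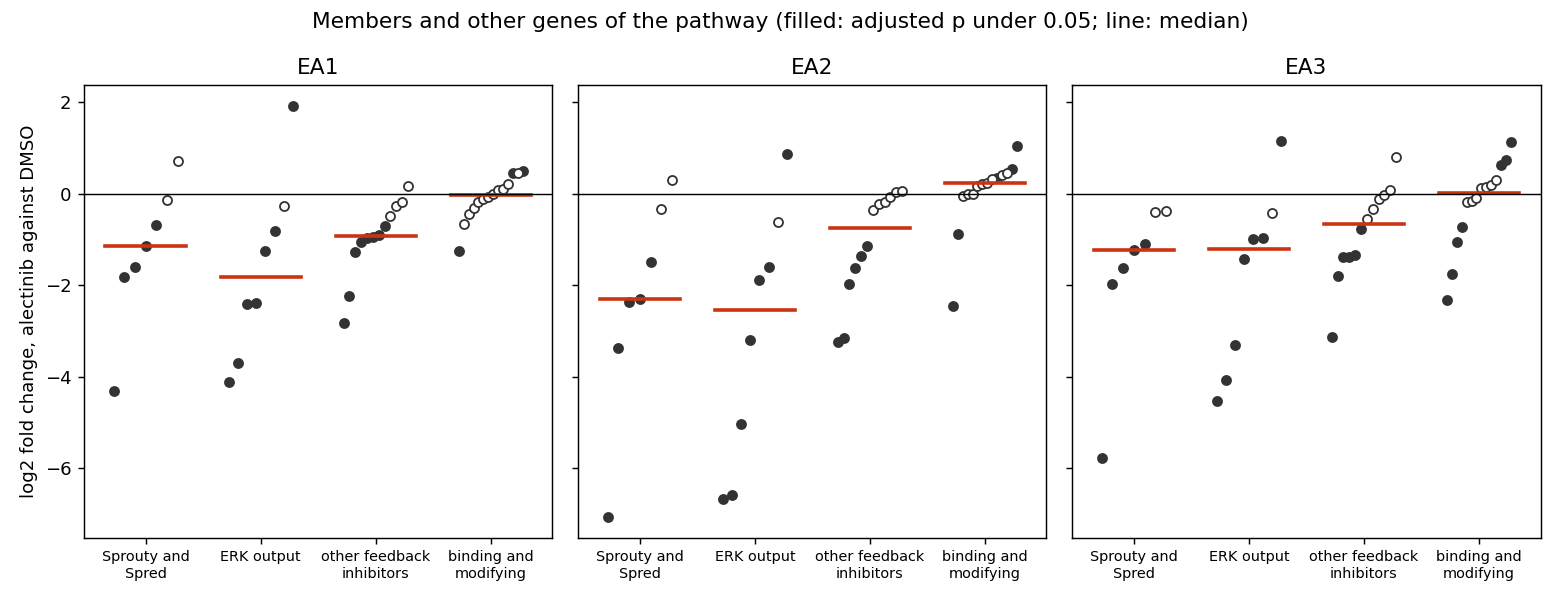
Log2 fold change of alectinib against DMSO (vertical axis) of the 7 family members and of the tested genes of 3 pathway lists (horizontal axis) in EA1, EA2 and EA3, 1 point per gene, filled for an adjusted p under 0.05 in the edgeR test, with a red line at the list median. The medians of the family and the ERK output list lie between -1.14 and -2.54, and those of the binding and modifying proteins between -0.03 and 0.23.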

How the data were processed

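The authors deposited raw counts per gene, made by STAR itself during alignment to mm10, after bbduk had removed adapter sequence and FastQC had been run on the reads. The annotation release and strand column are not given in the sources used here. All 55391 symbols matched GENCODE M21 when case was ignored. A further 24 lines held date numbers in place of a gene (0.129% to 0.201% of a library) and were left out.

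Tests used edgeR 4.0.16 (filterByExpr, TMM, robust quasi-likelihood test) in R 4.3.3, and results were summarised in Python 3.11.15. The 24 libraries were fitted together, with 12 blocks for the combinations of line and day and a separate effect of alectinib in each line. The block follows the culture day in the labels, and deviations of its 2 libraries from their group means correlated between -0.300 and 0.549. Lines were compared within the 12 libraries of each treatment. P-values were adjusted over all 14264 tested genes by Benjamini-Hochberg, with a threshold of 0.05. Members, lists and tests were chosen with earlier results of these data known. Named genes were all members, the 3 genes of each list with the largest mean change among those past the threshold, and the 3 genes most correlated with each member. Alternatives were DESeq2 1.42.0 and its size factors, library size alone, no filter, no day block, a minimum of 10 counts in every library, separate lines, all 26 libraries and each day left out. Scripts were tested on simulated data. Proteins were not analysed here, and list genes given no value in the text are counted only.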

Additional observations from a re-analysis of the deposited data

Results flagged for a closer look

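Of 42 groups of 4 libraries, 2 held a library far from the other 3 by Dixon's test, and chance marks about 1 group in 20. Spry1 in EA3 with alectinib reached 26.98 CPM on day 3, beside 12.7 to 13.7 CPM on the other days. Spry3 in EA1 with DMSO was at 0 CPM on day 2, where the other days held 2 counts each. In edgeR's test over the 3 lines, the alectinib effect differed for Spred3 (adjusted p = 0.00972), Spred2 (0.0119) and Spry4 (0.0469), each with its largest fall in EA2 and lower in alectinib on 4 of 4 days in every line. Spry2 and Spred1 also fell most in EA2. Without day 3 or day 5, 0 members passed. With all 26 libraries 0 passed too, in a fit where the 2 added EA3 libraries correlated more with EA2.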

How the results depend on the processing

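The 5 calls in each line remained under every alternative that tested the genes. With at least 10 counts in every library, Spry4 and Spry3 were not tested. Of 232 recomputed fold changes of single members, 228 kept their direction and their side of the threshold and 4 turned in sign, none of them past the threshold. These came from leaving out days in turn, which gave -0.43 to 0.08 for Spry1 in EA1 (0.05 without day 1 and 0.08 without day 2), -0.14 to 0.59 for Spry1 in EA2 (-0.14 without day 3) and -1.12 to 0.48 for Spry3 in EA3 (0.48 without day 3). The number of members whose effect differed between lines was 3, against 1 without the replicate block, 0 with all 26 libraries, 4 with DESeq2 and 0 to 4 when days were left out in turn. Without the block, the call of Spry2 between lines in DMSO was lost too (2 members against 3), while the calls within each line and between lines in alectinib did not change. The tests over days were not run without the block. In DMSO, lines differed for 2 to 4 members over the alternatives. With all 26 libraries, Spry4 in EA3 moved from -5.77 to -6.38. The 2 libraries added there are labelled EA3 but correlated more with EA2, so this alternative cannot judge differences between those lines. The number whose effect changed with days was 0, and 1 (Spry4) without a filter on low counts. For the level over days in DMSO it was 0, against 1 without the filter (Spry4), 1 with at least 10 counts (Spred3), 2 with DESeq2 and 0 to 2 when days were left out. Lines in alectinib differed for 7 members, and for 3 to 6 when days were left out. The cause of these changes was not tested. Scaling by library size alone put the median of all genes at 0.16 in EA1, -0.04 in EA2 and 0.18 in EA3. Depth limits Spry3 and, in EA2 and EA3 with alectinib, Spry4.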

Other observations

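The 2 libraries labelled EA3 day 7, which were used in the alternative with all 26 libraries and in no other test, held 739 counts of Spry4 in DMSO and 0 in alectinib. Spry2 was at 111.8 and 8.15 CPM, Spred1 at 156.8 and 32.5 CPM, Spred2 at 111.3 and 17.1 CPM and Spred3 at 60.3 and 3.48 CPM in DMSO and alectinib. Spry1 was at 7.08 and 3.65 CPM and Spry3 at 1.52 and 1.36 CPM. There is 1 library per treatment, so these values have no replicate check.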
